A study of Mus musculus with 71 samples.

Results

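The Gimap genes code for GTPases of immunity-associated proteins and lie next to each other on mouse chromosome 6. The family was taken as the 8 mouse genes *Gimap1*, *Gimap3*, *Gimap4*, *Gimap5*, *Gimap6*, *Gimap7*, *Gimap8* and *Gimap9*, chosen by name and not by any measured value. All 8 had values, among 25579 genes in the files of the Pax5 mutants and among 24420 genes in those of the lymphoid progenitors, and no other row carried a name beginning with Gimap. Of the 71 samples of the study, the 48 with RNA-seq were used.

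Pax5 is the transcription factor that commits lymphoid progenitors to the B cell lineage, and the study deleted its conserved parts in mice to see which genes need which part. The cells came from C57BL/6 mice and were sorted by flow cytometry directly from bone marrow or thymus. Pro-B cells, the earliest committed B cell precursors, were wild-type (Pax5 +/+, n = 5) or homozygous for a Pax5 gene that lacked the octapeptide (∆OP), the partial homeodomain (∆HD) or both (∆OP,HD). Further pro-B cells lacked the C-terminal regulatory domain CRD1, CRD2 or both, either on both alleles (∆CRD1/∆CRD1, ∆CRD2/∆CRD2, ∆CRD1,2/∆CRD1,2) or on an allele opposite a Pax5-null allele (∆CRD1/-, ∆CRD2/-, ∆CRD1,2/-). Each mutant group had n = 2. Progenitors without functional Pax5 carried Pax5 fl/fl alleles deleted by Vav-Cre (n = 2), which is active throughout the haematopoietic system. In a separate set, called the Prd experiment here, Vav-Cre was present in all 3 groups: Pax5 fl/+ pro-B cells, Pax5 fl/fl progenitors and Pax5 Prd/fl progenitors, whose remaining allele expresses little more than the DNA-binding paired domain (n = 2 each). The other 17 samples were lymphoid stages on the path to T cells: lymphoid-primed multipotent progenitors (LMPP) of the bone marrow and the thymic stages DN1, DN2a, DN2b, DN3a and DN3b, all wild-type, and DN3a cells of Rag2-/- mice, which cannot rearrange antigen receptor genes (n = 3 each for DN1, DN2a and DN2b and n = 2 each for the rest). The labels repeat a replicate number within each of DN1, DN2a and DN2b, so whether all their samples are independent is not known.

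The ∆CRD1,2 pro-B cells and the Pax5-deficient progenitors were sorted by other surface markers than most pro-B cells, and the labels give yet another gating for the progenitors of the Prd experiment. The populations therefore differ in their gates as well as in Pax5. In such bulk samples, fewer cells of a type and less RNA per cell cannot be told apart. All 10 markers looked at of pro-B cells were above 1 TPM in all pro-B and progenitor groups. Their sum was 17744 to 22080 TPM in Pax5 +/+ but 10443 to 11971 TPM in the Vav-Cre Pax5 fl/fl progenitors. In the Prd experiment it was 18236 to 18355 TPM in fl/+, 10444 to 11085 TPM in fl/fl and 11500 to 12035 TPM in Prd/fl. Pax5 mRNA itself did not mark the deletion, with a mean of 442 TPM in Pax5 +/+ and 1653 TPM in Vav-Cre Pax5 fl/fl cells. Depth lay between 10018678 and 43784791 reads per library, as recovered from the deposited values.

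GIMAP proteins are septin-related GTPases found mainly in lymphocytes, several of them anchored in the membranes of mitochondria, endoplasmic reticulum or lysosomes. Their best known role is in the survival of lymphocytes: *Gimap5* is required for the survival of T cells, and *Gimap1* for that of mature B and T cells. *Gimap3* is a close relative of *Gimap5*, *Gimap4* has been linked to the death of T cells, *Gimap6* to autophagy, and *Gimap7* is a GTPase that becomes active as a dimer.

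On GRCm38 with GENCODE M21 the cluster spans 123618 bases, chr6:48647234-48770851. Its order is *Gimap8* (48647234 to 48660875), *Gimap9* (48676129 to 48679114), *Gimap4* (48684549 to 48692060), *Gimap6* (48701582 to 48708225), *Gimap7* (48718621 to 48724636), *Gimap1* (48739054 to 48743795), *Gimap5* (48746197 to 48754210) and *Gimap3* (48764464 to 48770851). *Gimap6* and *Gimap3* lie on the minus strand and the rest on the plus strand. The library kit did not mark strand, which matters for *Gimap1*: 32.45% of its 50-base stretches also lie in the antisense gene *Gimap1os*, which has no row of its own, so their reads cannot be told apart. *Gimap3* shared 7.52% of its 50-base stretches with *Gimap5*, and the readthrough gene *Gm28053* (48718607 to 48752644) holds 4.78% of those of *Gimap1*, 2.5% of *Gimap5* and 1.39% of *Gimap7*.

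To show what the members have in common in sequence, the 250 bases before each RefSeq start site (GRCm38.p6) were searched on both strands for 5 motifs. TGTGGT, the core that Runx factors bind (ACCACA on the other strand), lay before *Gimap4*, *Gimap7* and *Gimap1* and in 14% of all 32851 promoters of the table. The following 30-base stretches carry the match in capitals, 5′ to 3′ on the plus strand. They are shown because *Gimap4* and *Gimap7* were among the members that differed most between genotypes while *Gimap1* was not called in any of them.
*Gimap4*, chr6:48684421-48684450: cagcccatgggtACCACAtgagatgacaca
*Gimap7*, chr6:48718530-48718559: actgaagcatccACCACAacaggggactgt
*Gimap1*, chr6:48738940-48738969: aggaatgctaagACCACAactacatggaaa
The matches began 145, 79 and 95 bases before the respective start sites. The E-box CAGNTG, searched as CANCTG on the other strand and bound by E proteins of lymphoid cells, lay before *Gimap5*, *Gimap7*, *Gimap8* and *Gimap9* and in 44.8% of all promoters; that of *Gimap7* began 223 bases before its start site.
*Gimap7*, chr6:48718386-48718415: gcagtcctgcagCAGATGatggagtgtcct
GGAAGT, an Ets core (ACTTCC on the other strand), lay before *Gimap5* and *Gimap6* and in 19.7% of all promoters. TATAAA, searched as TTTATA on the other strand, lay before *Gimap6* alone of the members and in 12.4% of all promoters. The E-box CACGTG (6.02% of all promoters) was before none of them, and before *Gimap3* none of the 5 motifs was found. A match describes the letters only. The 2 overlapping start sites of *Gimap8* were searched separately.

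In wild-type pro-B cells the family was well expressed. Levels are TPM, which correct for gene length and depth, so that genes can be set side by side. The 8 members summed to 910.9 TPM on average (SD 161.3, range 699.8 to 1091.8, n = 5). *Gimap6* gave 43.8% of this sum and *Gimap1* 31.4%, followed by *Gimap9* (8.52%), *Gimap4* (6.65%), *Gimap5* (3.61%), *Gimap7* (2.52%), *Gimap8* (1.82%) and *Gimap3* (1.65%). The lowest member of pro-B cells, *Gimap3*, was also among those that varied most between genotypes.

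**Figure D1:**
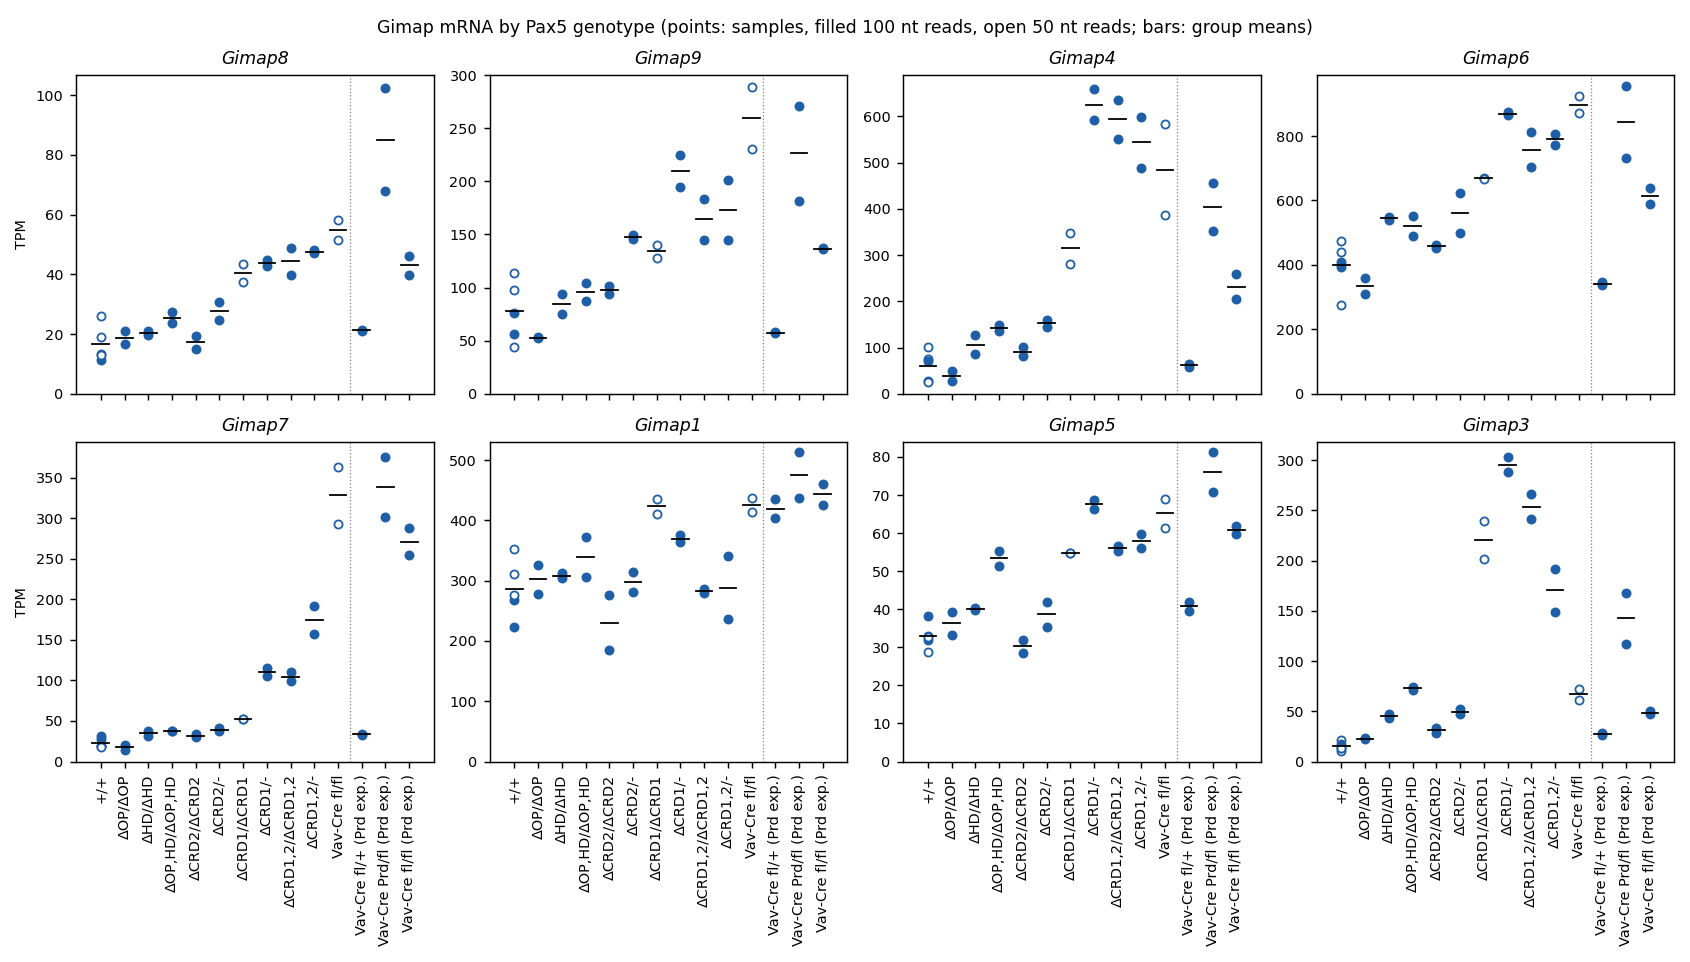
TPM of each Gimap gene (linear axes from 0, 1 panel per gene in chromosomal order) in every pro-B and progenitor sample by Pax5 genotype; points are samples (filled, 100 nt reads; open, 50 nt reads), horizontal bars are group means and the dotted line sets off the Prd experiment. All members but *Gimap1* were higher in every sample without CRD1 or without Pax5 than in any Pax5 +/+ sample. The share of all genes that did so was not counted. *Gimap3* rose less without Pax5 than without CRD1. In the Prd experiment it read 46.99 and 50.01 TPM in fl/fl against 26.7 and 28.5 TPM in fl/+. *Gimap1* stayed between 184.3 and 513.0 TPM.

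Most of the family was higher in cells without CRD1. In ∆CRD1/- pro-B cells, 7 of the 8 members exceeded their level in wild-type pro-B cells (limma on log2(TPM + 0.1), adjusted p below 0.05 over all genes tested), beside 3.85% of all genes tested that were higher. The median log2 fold change was 1.75 over the members and 0.03 over all genes, and the sum of the 8 members was 2591.4 TPM (SD 69.0, n = 2). Fold changes on this scale understate the change of genes with low values. Where p-values are given they measure the spread between these samples, since nothing in the labels names separate litters or cultures.

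*Gimap3*, the relative of the survival factor *Gimap5*, changed most. It was at 9.997, 21.1, 13.5, 17.2 and 13.6 TPM in the 5 Pax5 +/+ samples and at 303 and 288 TPM in the ∆CRD1/- samples, with a wide gap between the groups. Its log2 fold change was 4.27 ± 0.28 (SE), or 19.3-fold (limma adjusted p = 1.44e-05). *Gimap4*, the member linked to T cell death, was at 75.99, 102, 28.2, 70.98 and 25.9 TPM in Pax5 +/+ and varied there more than any other member relative to its mean. In ∆CRD1/- it was at 659 and 591 TPM, above every wild-type sample (3.80 ± 0.56, 13.9-fold, limma adjusted p = 0.00161). This size rested on the 2 wild-type samples with 100 nt reads and became 3.13 without Pax5 +/+ replicate 3 and 4.47 without replicate 4. The study itself chose *Gimap4* as an example gene from these samples, so its direction is not independent evidence.

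*Gimap7* was at 18.7, 18.9, 31.2, 28.1 and 18.02 TPM in Pax5 +/+ and at 115 and 106 TPM in ∆CRD1/- cells. Its wild-type values fell into separate ranges by read length, up to 18.9 TPM with 50 nt reads and at least 28.1 TPM with 100 nt reads, a ratio of 1.6. Reads were trimmed to a common length before mapping. Read length, here and as a model term, therefore also stands for other differences between these libraries, which were not tested. With read length in the model the log2 fold change was 1.89 ± 0.14 (limma adjusted p = 3.14e-05), and it was 1.89 also against the wild-type samples of the same read length alone. *Gimap1* differed by read length as well, by a ratio of 0.78 and without overlap, and the other 6 members overlapped.

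The remaining members rose less. *Gimap8*, which has several GTPase domains, was at 19.1, 26.03, 11.5, 13.4 and 13.1 TPM in Pax5 +/+ and at 42.6 and 44.8 TPM in ∆CRD1/- (1.81 ± 0.26, limma adjusted p = 0.0014). *Gimap9* went from 114, 97.8, 56.2, 75.6 and 44.3 to 225 and 195 TPM (1.68 ± 0.36, limma adjusted p = 0.0155). *Gimap6*, the autophagy-linked and most abundant member, went from 475, 441, 394, 409 and 275 to 865 and 873 TPM (1.11 ± 0.22, limma adjusted p = 0.00925). In each case both mutant samples lay above every wild-type sample. For this and the other comparisons of C-terminal mutants or progenitors with Pax5 +/+, the share of all genes without overlap was not counted. Without Pax5 +/+ replicate 3, or without either ∆CRD1/- sample, *Gimap6* and *Gimap9* no longer passed (limma adjusted p = 0.0672 to 0.0777 and 0.0781 to 0.136).

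The survival factors of mature lymphocytes moved least. *Gimap5* was at 28.8, 32.99, 38.1, 31.9 and 32.7 TPM in Pax5 +/+ and at 66.4 and 68.7 TPM in ∆CRD1/-, a change of 0.95 ± 0.14 on the log2 scale or 1.93-fold (limma adjusted p = 0.00197). *Gimap1* was at 312, 352, 268, 223 and 277 TPM in Pax5 +/+ and at 364 and 376 TPM in ∆CRD1/-. Although these samples did not overlap either, the change of 0.60 ± 0.18 did not pass the test (limma adjusted p = 0.065), and *Gimap1* was called in no comparison between Pax5 genotypes. Without the read length term it passed in the Vav-Cre Pax5 fl/fl comparison (0.59, limma adjusted p = 0.0223).

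**Figure D2:**
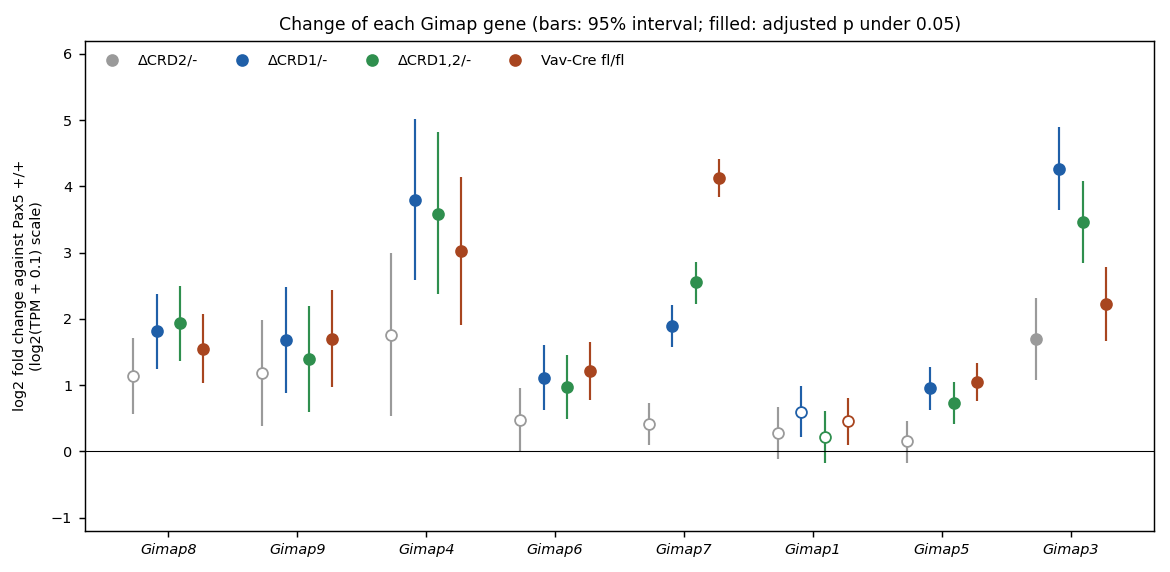
Log2 fold change against Pax5 +/+ pro-B cells on the log2(TPM + 0.1) scale for each Gimap gene in chromosomal order; points are limma estimates, bars their 95% intervals, colours the mutant genotype and filled points adjusted p below 0.05. *Gimap3* has its largest change in ∆CRD1/- (4.27) and *Gimap7* in Vav-Cre Pax5 fl/fl cells (4.13), while the open points of *Gimap1* lie between 0.21 and 0.60.

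Deletion of both domains and loss of Pax5 gave the same count with another order of sizes. In ∆CRD1,2/- cells 7 members were higher than in Pax5 +/+ (7.96% of all genes tested), with a median of 1.66 over the members and -0.04 over all genes. In the Vav-Cre Pax5 fl/fl progenitors 7 members were higher as well (17.1% of all genes tested), with medians of 1.63 and 0.01. These comparisons and that of ∆CRD1/- share the 5 Pax5 +/+ samples. Their sums over the family were 2244.9 and 2581.3 TPM, and *Gimap6* remained the most abundant member in the progenitors with 34.7% of the sum.

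Outside the Prd experiment *Gimap7* was highest in the progenitors without Pax5. Its samples read 157 and 192 TPM in ∆CRD1,2/- and 293 and 363 TPM in the Vav-Cre Pax5 fl/fl progenitors, each pair above all ∆CRD1/- and wild-type samples. The log2 fold changes against Pax5 +/+ were 2.55 ± 0.14 (5.85-fold, limma adjusted p = 1.72e-06) and 4.13 ± 0.13 (17.5-fold, limma adjusted p = 1.28e-08), the latter the largest change of any member in that comparison. *Gimap3* took the opposite order. It read 149 and 192 TPM in ∆CRD1,2/- and 72.1 and 61.5 TPM in the progenitors, which were above Pax5 +/+ and below every ∆CRD1/- sample. Its changes were 3.47 ± 0.28 (limma adjusted p = 1.6e-05) and 2.22 ± 0.26 (4.66-fold, limma adjusted p = 6.58e-05).

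The differences between the mutants were tested directly. *Gimap7* was higher in ∆CRD1,2/- than in ∆CRD1/- cells by 0.65 ± 0.14 (limma adjusted p = 0.043), the only member called (0.594% of all genes tested were higher). This call was weak, since it was lost in 9 of 13 alternatives, among them each of the 4 that left out a sample and the fit without the read length term (limma adjusted p = 0.317). *Gimap7* was higher again in the progenitors than in ∆CRD1,2/- cells (1.58 ± 0.19, 2.99-fold, limma adjusted p = 0.00366), also the only member called (1.12%), and this difference became 0.91 without the read length term (limma adjusted p = 0.0391). *Gimap3* differed by -0.80 and -1.25 in these comparisons and passed in neither (limma adjusted p = 0.21 and 0.136), but without the read length term it was lower in the progenitors than in ∆CRD1,2/- cells (-1.35, limma adjusted p = 0.00976). A direct comparison of ∆CRD1/- with the progenitors, added after the values were seen, called *Gimap3* as higher in ∆CRD1/- (2.05 ± 0.38, 4.14-fold, limma adjusted p = 0.00819) and *Gimap7* as lower (-2.24 ± 0.19, limma adjusted p = 0.000112; -1.56 without the read length term). These were the 2 members called among 8.26% of all genes in either direction.

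**Figure D3:**
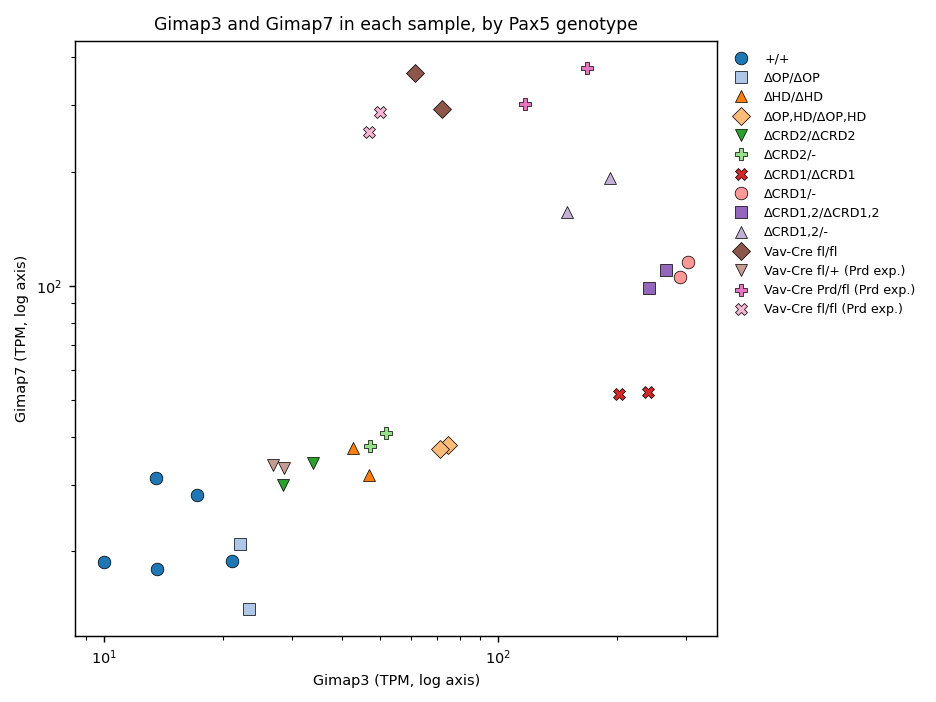
*Gimap3* (horizontal) against *Gimap7* (vertical) in every pro-B and progenitor sample, both in TPM on log axes, with a symbol and colour for each genotype. The Vav-Cre Pax5 fl/fl samples combine 61.5 to 72.1 TPM of *Gimap3* with 293 to 363 TPM of *Gimap7*, and the ∆CRD1/- samples 288 to 303 TPM of *Gimap3* with 105.5 to 115.5 TPM of *Gimap7*.

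No other member was called in these comparisons between the mutants. *Gimap4* read 599 and 489 TPM in ∆CRD1,2/- and 387 and 583 TPM in the progenitors (3.59 ± 0.56 and 3.02 ± 0.51 against Pax5 +/+, limma adjusted p = 0.00105 and 0.000952), and its values overlapped between the mutants. Its change in ∆CRD1,2/- was 2.93 without Pax5 +/+ replicate 3 and 4.26 without replicate 4, and that in the progenitors was 2.43 without replicate 5. *Gimap5*, *Gimap6*, *Gimap8* and *Gimap9* also passed against Pax5 +/+ in both, with log2 fold changes of 0.73 and 1.05, 0.97 and 1.21, 1.93 and 1.55, and 1.39 and 1.70. In ∆CRD1,2/- the calls of *Gimap6* (limma adjusted p = 0.056 and 0.0608) and *Gimap9* (0.129 and 0.153) were lost without Pax5 +/+ replicate 3 or without ∆CRD1,2/- replicate 1. *Gimap1* in ∆CRD1,2/- (236 and 340.2 TPM) overlapped the wild-type samples. In the progenitors it was at 437 and 414 TPM, above every wild-type sample, and did not pass (0.45 ± 0.16, limma adjusted p = 0.0577).

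Without CRD2 alone, 1 member was called. In ∆CRD2/- cells *Gimap3* was higher (0.308% of all genes tested), with medians of 0.81 over the members and 0.04 over all genes. *Gimap3* was at 47.3 and 51.95 TPM, above every wild-type sample (1.69 ± 0.28, limma adjusted p = 0.026), but this call was lost without Pax5 +/+ replicate 3 (0.238), without replicate 4 (0.0613) and without either ∆CRD2/- sample (0.123 and 0.206). *Gimap4* (159.7 and 145 TPM) and *Gimap9* (149.6 and 146 TPM) also lay above all wild-type samples, with changes of 1.76 ± 0.56 and 1.18 ± 0.36 that did not pass (limma adjusted p = 0.308 and 0.292). Markers of granulocytes and macrophages summed to 10974.7 TPM in ∆CRD2/- replicate 1 and to 843.3 TPM in replicate 2, and the Gimap sums of these samples were 1235.5 and 1392.7 TPM. Among wild-type samples replicate 4 had the highest such marker sum (5021.7 TPM) with a Gimap sum of 868.7 TPM.

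The homozygous alleles were compared with Pax5 +/+ in the same way. No member was called in ∆CRD2/∆CRD2 cells by limma (0.0956% of all genes in either direction), 1 passed an unadjusted p of 0.05 and edgeR called 0, beside 7.4% of all genes at an unadjusted p under 0.05. That member, *Gimap3*, was at 28.4 and 33.8 TPM, above the wild-type samples (1.02 ± 0.26, limma adjusted p = 0.248). In ∆CRD1/∆CRD1 cells 6 members were higher (3.71%), namely *Gimap3* at 202 and 239 TPM (3.94 ± 0.24, limma adjusted p = 8.61e-07), *Gimap4*, *Gimap5*, *Gimap6*, *Gimap7* at 52.03 and 52.5 TPM (1.49 ± 0.11, limma adjusted p = 4.95e-06) and *Gimap8*. In ∆CRD1,2/∆CRD1,2 cells 7 were higher (10.2%), all but *Gimap1*. There *Gimap3* was at 267 and 241 TPM (4.05 ± 0.26) and *Gimap7* at 110.3 and 98.8 TPM (1.81 ± 0.12). Without ∆CRD1/∆CRD1 replicate 1 the calls of *Gimap4*, *Gimap6* and *Gimap8* were lost (limma adjusted p = 0.0925, 0.15 and 0.0621), and without replicate 2 those of *Gimap6* and *Gimap8* (0.127 and 0.116). In ∆CRD1,2/∆CRD1,2 the call of *Gimap9* was lost without Pax5 +/+ replicate 3 (0.0965) and those of *Gimap6* and *Gimap9* without its replicate 1 (0.0539 and 0.0948). For ∆CRD1 the homozygous libraries had 50 nt reads and the hemizygous ones 100 nt reads.

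The values of further members in the homozygous cells were as follows. *Gimap4* read 349 and 279.6 TPM in ∆CRD1/∆CRD1 and 635 and 552 TPM in ∆CRD1,2/∆CRD1,2, above every wild-type sample (2.41 ± 0.46 and 3.72 ± 0.50, limma adjusted p = 0.00571 and 0.000153). The latter change was 3.06 without Pax5 +/+ replicate 3 and 4.39 without replicate 4. *Gimap5* read 54.9 and 54.7 TPM and 55.3 and 56.7 TPM (0.80 ± 0.12 and 0.68 ± 0.13, limma adjusted p = 0.000813 and 0.00167). *Gimap9* was the member that passed with both domains deleted (183 and 145 TPM, 1.32 ± 0.33, limma adjusted p = 0.011) and missed the threshold with CRD1 deleted (128 and 140.2 TPM, 0.76 ± 0.30, limma adjusted p = 0.168). Its ∆CRD1/∆CRD1 samples still lay above all wild-type samples, of which the highest was at 113.9 TPM. *Gimap1* was at 411 and 435 TPM in ∆CRD1/∆CRD1, also above the wild-type samples, with a change of 0.44 ± 0.18 that did not pass (limma adjusted p = 0.176).

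Whether 1 or 2 copies of a truncated allele made a difference was tested for each allele. For ∆CRD2 limma called no member (0.272% of all genes in either direction), 4 passed an unadjusted p of 0.05 (7.71% of all genes did) and edgeR called 0. All 8 members were higher in both ∆CRD2/- samples than in both ∆CRD2/∆CRD2 samples, as were 18.7% of all genes tested, with a median of 0.50 beside 0.02 over all genes. For ∆CRD1 limma called no member and no gene at all (0% of all genes), 1 member passed an unadjusted p of 0.05 (6.02% of all genes did) and edgeR called 0 members and 19 genes. *Gimap4* differed most there (659 and 591 against 349 and 279.6 TPM), by 1.39 ± 0.68 with read length in the model (limma adjusted p = 0.809). For ∆CRD1,2 only *Gimap7* was higher in the hemizygous cells (0.73 ± 0.12, limma adjusted p = 0.0288, 0.0735% of all genes were higher), a call lost in 7 of 13 alternatives. *Gimap3* was lower in both hemizygous samples, with a change of -0.58 ± 0.26 that did not pass (limma adjusted p = 0.924).

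In the mutants of the central domains few members were called, *Gimap3* first among them. In ∆OP cells limma called no member (0.485% of all genes in either direction), 4 passed an unadjusted p of 0.05 (19.5% of all genes did) and edgeR called 0. In ∆HD cells only *Gimap3* was higher (0.331%), at 46.9 and 42.8 TPM against 13.5 and 17.2 TPM in the Pax5 +/+ samples with 100 nt reads (1.55 ± 0.14, limma adjusted p = 0.00851). In ∆OP,HD cells *Gimap3* was at 74.6 and 70.9 TPM (2.25 ± 0.14, limma adjusted p = 0.000771), and *Gimap8* passed too, at 27.3 and 23.6 TPM against 11.5 and 13.4 TPM (1.03 ± 0.17, limma adjusted p = 0.0358; 0.0556 without the filter on low genes). These were the 2 members called (0.739% of all genes tested were higher). The ∆HD call was lost without Pax5 +/+ replicate 3 or either ∆HD sample, and with ∆OP,HD replicate 1 left out no member passed in ∆OP,HD.

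All 8 members were higher in both ∆OP,HD samples than in both wild-type samples with 100 nt reads, as were 22.7% of all genes tested, with a median of 0.58 beside -0.01 over all genes. *Gimap4*, for example, was at 136 and 149 TPM against 28.2 and 71.0 TPM (1.67 ± 0.43, limma adjusted p = 0.135). In ∆OP cells 3 members lay above and 3 below the wild-type samples with 100 nt reads (24.9% and 22.9% of all genes tested did), and the median was -0.11 beside -0.03. *Gimap7* had its lowest genotype mean there, at 20.98 and 14.1 TPM (-0.78 ± 0.19, limma adjusted p = 0.113). The combined deletion was set against the sum of both single deletions. For this departure limma called no member (0.00769% of all genes), 1 passed an unadjusted p of 0.05 (6.95% of all genes did) and edgeR called 0, and *Gimap3* departed from the sum by only 0.13 ± 0.20 (limma adjusted p = 0.891).

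Across the 11 genotypes outside the Prd experiment, *Gimap3* increased in the order Pax5 +/+, ∆OP, ∆CRD2/∆CRD2, ∆HD, ∆CRD2/-, Vav-Cre Pax5 fl/fl, ∆OP,HD, ∆CRD1,2/-, ∆CRD1/∆CRD1, ∆CRD1,2/∆CRD1,2 and ∆CRD1/-. Of the neighbours in this order, the samples of Vav-Cre Pax5 fl/fl and ∆OP,HD overlapped and the others did not. *Gimap7* increased in the order ∆OP, Pax5 +/+, ∆CRD2/∆CRD2, ∆HD, ∆OP,HD, ∆CRD2/-, ∆CRD1/∆CRD1, ∆CRD1,2/∆CRD1,2, ∆CRD1/-, ∆CRD1,2/- and Vav-Cre Pax5 fl/fl, and its neighbours overlapped from ∆OP up to ∆CRD2/- and again between ∆CRD1,2/∆CRD1,2 and ∆CRD1/-. These are orders of TPM without regard to read length, in which *Gimap7* differed among the wild-type samples. The range between the lowest and the highest genotype mean was 4.33 on the log2 scale for *Gimap3*, 4.24 for *Gimap7*, 4.07 for *Gimap4*, 2.29 for *Gimap9*, 1.78 for *Gimap8*, 1.43 for *Gimap6*, 1.16 for *Gimap5* and 0.91 for *Gimap1*.

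The members resembled each other to different degrees. As a description over the 11 genotype means, which also differ in read length and sort, Pearson's r with the mean of the members was 0.99 for *Gimap4*, 0.981 for *Gimap6*, 0.976 for *Gimap8*, 0.928 for *Gimap9*, 0.926 for *Gimap5*, 0.918 for *Gimap7*, 0.892 for *Gimap3* and 0.543 for *Gimap1*. *Gimap3* and *Gimap7*, both far from flat, had an r of only 0.66 with each other, while *Gimap4* and *Gimap6* had the highest of any pair (0.98). Outside the family the 10 patterns most like the mean included those of *Ext1* (0.983), *Lgmn* (0.981), *Mrm1*, *Adgrg3*, *Cd244a*, *Zfp287*, *Diexf* and *Sox15*, among 291 of 13373 genes with an r above 0.9. *Ext1* codes for an enzyme of heparan sulphate synthesis.

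The Prd experiment repeated the comparison of Pax5-deficient with Pax5-expressing cells in other samples, with 100 nt reads throughout. In the Pax5 fl/fl progenitors 7 members were higher than in the Pax5 fl/+ pro-B cells (20.8% of all genes tested were higher), again all but *Gimap1*. *Gimap7* was at 33.8 and 33.1 TPM in fl/+ and at 255 and 288 TPM in fl/fl, the largest change (3.01 ± 0.12, 8.07-fold, limma adjusted p = 2.65e-05). *Gimap4* came next, from 58.1 and 64.6 to 205 and 259 TPM (1.91 ± 0.16, limma adjusted p = 0.000297). *Gimap3* rose less, from 26.7 and 28.5 to 46.99 and 50.01 TPM (0.81 ± 0.17, limma adjusted p = 0.00976), a call lost when any of the 4 samples was left out (0.0627 to 0.0764). *Gimap1* hardly moved (403 and 435 TPM and 461 and 425 TPM, 0.08 ± 0.10, limma adjusted p = 0.567).

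The other members that rose in the fl/fl progenitors did so by at most 1.24 on the log2 scale. *Gimap6* went from 336 and 348 TPM in fl/+ to 639 and 589 TPM in fl/fl (0.84 ± 0.13, limma adjusted p = 0.00328) and *Gimap9* from 57.1 and 58.2 to 137 and 136 TPM (1.24 ± 0.17, limma adjusted p = 0.00214). *Gimap8* went from 21.03 and 21.3 to 39.8 and 46.2 TPM (1.01 ± 0.19, limma adjusted p = 0.00718), and *Gimap5* from 41.9 and 39.6 to 61.9 and 59.9 TPM (0.58 ± 0.10, limma adjusted p = 0.00416). The call of *Gimap8* was lost without either fl/+ sample or fl/fl replicate 2 (limma adjusted p = 0.0562 to 0.063) and that of *Gimap5* without fl/+ replicate 2 (0.0525). For these 4 members both progenitor samples lay above both pro-B samples. The share of all genes that did so was not counted, and 20.8% of all genes tested were called higher. The family summed to 1003.2 TPM on average in fl/+, 1848.9 TPM in fl/fl and 2591.4 TPM in Prd/fl cells.

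In Pax5 Prd/fl progenitors *Gimap3* was higher than without any Pax5. It read 168 and 117 TPM, above both fl/fl samples (1.53 ± 0.17, 2.89-fold, limma adjusted p = 0.0128), and was the only member called (1.17% of all genes tested were higher). By edgeR 3 members were called and 7 passed an unadjusted p of 0.05 in limma (19.5% of all genes did). All members but *Gimap1* were higher in both Prd/fl samples than in both fl/fl samples, as were 31.3% of all genes tested. *Gimap4* (456 and 352 TPM) and *Gimap8* (102 and 67.7 TPM) missed the threshold (limma adjusted p = 0.0679 and 0.0681), and *Gimap7* differed by 0.32 ± 0.12 (376 and 302 TPM, limma adjusted p = 0.225). The Prd/fl samples differed from each other, with replicate 1 above replicate 2 for all members but *Gimap1*; without replicate 2, 7 members passed, and without either fl/fl sample none did. Against fl/+ cells, a comparison added after the values were seen, 7 members were higher in Prd/fl (24.1% of all genes tested), with *Gimap7* (3.33), *Gimap4* (2.71) and *Gimap3* (2.34) in front.

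Genes beside the cluster were looked at in the same fit. Of the 5 nearest protein-coding genes with a row on each side, 6 were expressed enough to be tested in the CRD comparisons. In ∆CRD1/- 3 of them were higher, beside the 3.85% of all genes: *AI854703* (48626764 to 48633689), just before *Gimap8*, by 2.11 ± 0.29 (limma adjusted p = 0.00112), *Tmem176b*, after *Gimap3*, by 0.85 ± 0.21 (limma adjusted p = 0.0282), and *Repin1* by 0.81 ± 0.15 (limma adjusted p = 0.0067). In the Vav-Cre Pax5 fl/fl progenitors 5 were higher, beside 17.1% of all genes, *AI854703* by 3.15 ± 0.26 (limma adjusted p = 6.54e-06). *AI854703* stayed at a low level, with means of 1.30 TPM in Pax5 +/+, 6.85 TPM in ∆CRD1/- and 11.2 TPM in the progenitors. *Lrrc61* was not called in these comparisons. Within the cluster *Gimap1*, between *Gimap7* and *Gimap5*, had smaller estimates than both of its neighbours in each of the 3 genotypes.

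**Figure D4:**
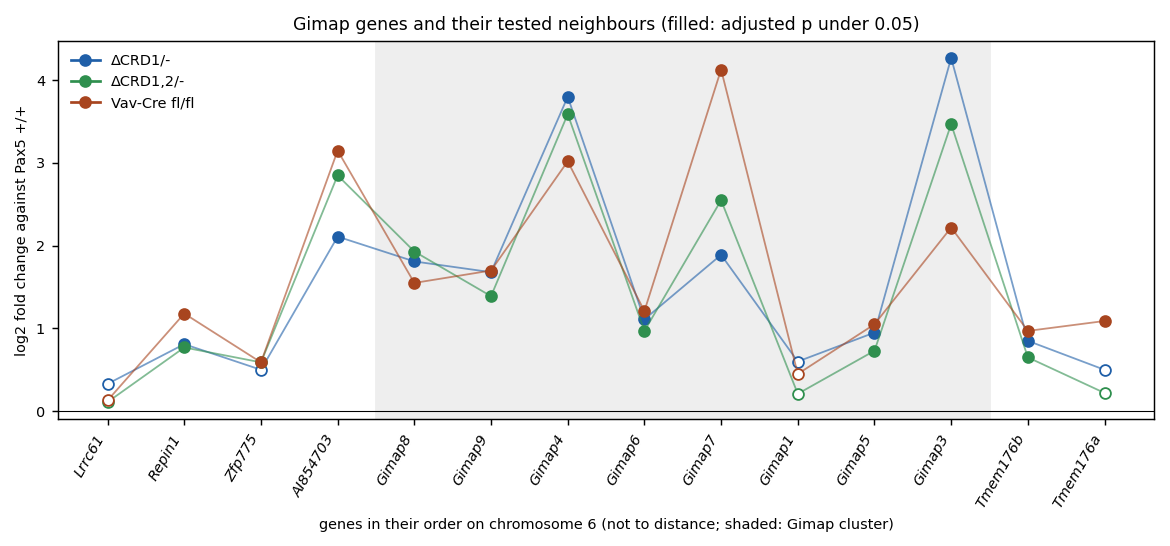
Log2 fold change against Pax5 +/+ pro-B cells for the Gimap genes (shaded) and their tested neighbours in gene order on chromosome 6 (not to distance), in ∆CRD1/-, ∆CRD1,2/- and Vav-Cre Pax5 fl/fl cells; filled points have adjusted p below 0.05. *AI854703* next to *Gimap8* has estimates of 2.11 to 3.15, *Gimap1* within the cluster of 0.21 to 0.60, and the other neighbours of 0.11 to 1.18.

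Genes that act with GIMAP proteins or in the same processes were read from lists chosen with earlier results of these data known, as counts of genes called. Over all genes tested, 3.85% rose and 4.66% fell in ∆CRD1/-, 7.96% and 12.3% in ∆CRD1,2/-, and 17.1% and 14.6% in the progenitors. Of 11 survival genes of the Bcl2 family tested, 0 rose and 1 fell in ∆CRD1/-, 0 rose and 2 fell in ∆CRD1,2/-, and 2 rose and 2 fell in the progenitors. *Bcl2l1*, whose product Bcl-xL protects lymphoid precursors from death, fell in all 3, by 1.01 in ∆CRD1/- (limma adjusted p = 0.00563) and by 2.60 in the progenitors (limma adjusted p = 1.01e-06), with means of 128 TPM in Pax5 +/+, 61.3 in ∆CRD1/-, 20.02 in ∆CRD1,2/- and 21.4 in the progenitors. Of 16 interferon-inducible GTPases of other families, 3 rose and 0 fell in ∆CRD1/- (median 0.23), 4 rose and 3 fell in ∆CRD1,2/- (median 0.30) and 11 rose and 1 fell in the progenitors (median 1.17), led by *Tgtp1* (3.85, limma adjusted p = 2.28e-05). Of 17 genes of quiescence and homing, 3 rose in ∆CRD1/- (*Ly6a* and *Il7r* among them) and 2 fell (*Klf2* and *Bach2*), in ∆CRD1,2/- 5 rose and 6 fell, and in the progenitors 5 rose and 7 fell. Of 12 regulators of T cell development, *Tcf7* rose (1.24, limma adjusted p = 0.00617) and *Lef1* fell (by 1.12, limma adjusted p = 0.0434) in ∆CRD1/-, 2 rose and 4 fell in ∆CRD1,2/-, and 4 rose and 4 fell in the progenitors.

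Markers of other cell types moved as follows. The 10 T cell markers summed to 135 to 164 TPM in Pax5 +/+, 225 to 246 in ∆CRD1/- and 442 to 447 in the Vav-Cre Pax5 fl/fl progenitors, but the sum was carried by *Lck* and *Lat*. Genes of the CD3 complex were near 0, with *Cd3e* at most 0.44 TPM, *Cd3d* 1.80 and *Cd3g* 1.14 in any of the 31 samples, and *Cd3g*, *Cd8a* and *Themis* were listed at 0 in both ∆CRD1/- samples. Multipotent progenitor markers summed to 88.4 to 114 TPM in Pax5 +/+, 186 to 187 in ∆CRD1/- and 498 to 594 in the progenitors. Plasmacytoid dendritic cell markers summed to 138 to 218, 135 to 137 and 674 to 1083 TPM, and endothelial markers to 296 to 388, 515 to 519 and 711 to 897 TPM in the same groups. Of the 6 endothelial markers, however, 5, 4 and 3 were above 1 TPM in these groups. Of the 6 plasmacytoid dendritic cell markers 6, 2 and 6 were, and of the 6 multipotent progenitor markers 5, 4 and 6. Granulocyte and macrophage markers were lower in ∆CRD1/- (231 to 358 TPM) than in Pax5 +/+ (462 to 5022 TPM). The part of these in the Gimap values was not tested.

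The lymphoid stages show how the family behaves on the path to T cells, where Pax5 is at most at 0.81 TPM. The deposited files hold 2 TPM values per gene, whose mean is used here, and they were mapped and normalised apart from the Pax5 mutants, so that levels are compared only among these stages. *Gimap1* was the most abundant member from DN1 to DN3b (42.7 to 51.9% of the family sum), whereas *Gimap6* led in LMPP (47.1%). The sum was 716.4 TPM in LMPP, 550.7 in DN1, 401.4 in DN2a, 435.6 in DN2b, 540.7 in DN3a and 214.6 in DN3b. The sorted stages bore their markers: *Cd3e* averaged 0.61 TPM in LMPP, 16.9 in DN1, 509 in DN2b and 2200.0 in DN3a, and multipotent progenitor markers summed to 1346 to 1379 TPM in LMPP and to 10.9 to 13.9 TPM in DN3b.

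**Figure D5:**
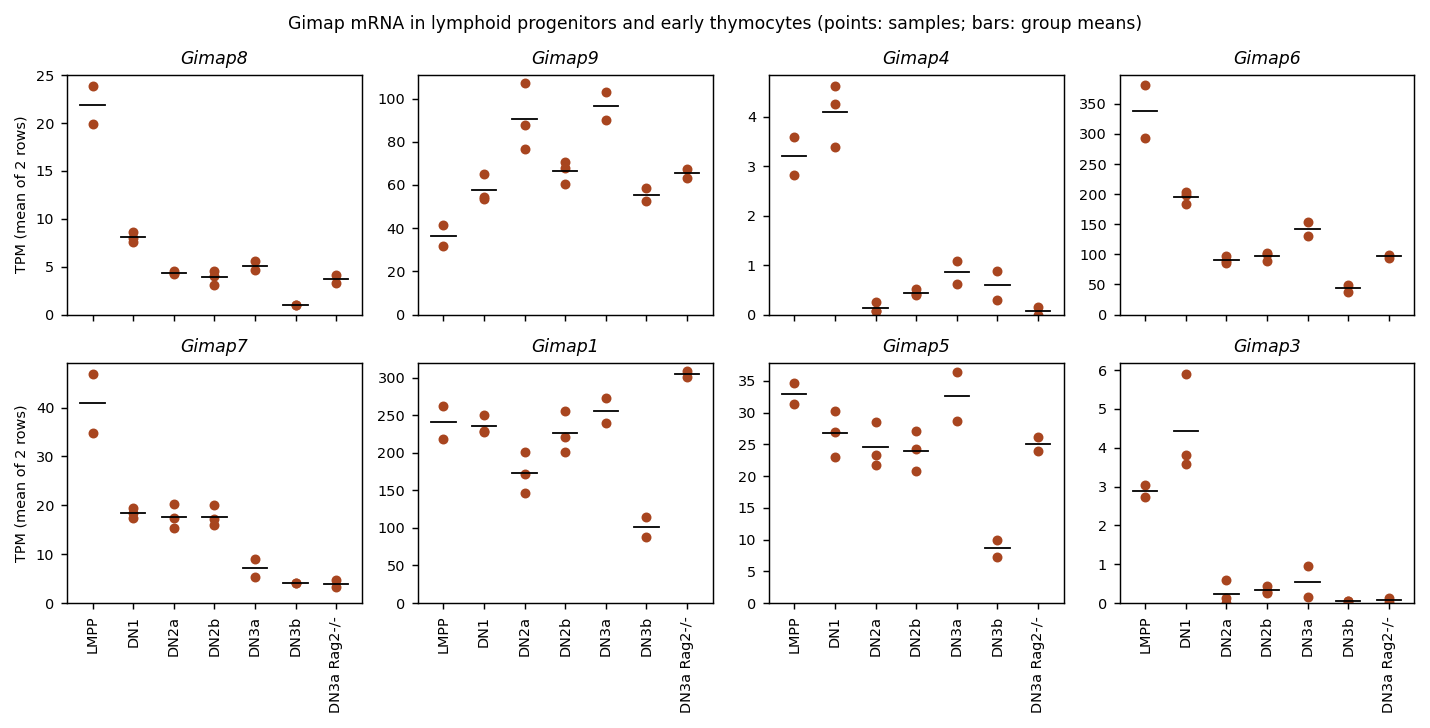
TPM (mean of the 2 deposited values) of each Gimap gene in LMPP, the wild-type thymic stages and Rag2-/- DN3a cells; points are samples, horizontal bars are group means and axes are linear from 0. *Gimap3* and *Gimap4* stay below 6 TPM in every sample and at most at 1.08 TPM from DN2a on, and *Gimap1* keeps between 88.0 and 308 TPM.

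*Gimap3* and *Gimap4* were low in LMPP and at 1.08 TPM or less from DN2a on. *Gimap3* read 3.03 and 2.72 TPM in LMPP, 5.88, 3.80 and 3.59 TPM in DN1 and 0.118, 0 and 0.589 TPM in DN2a, where the 0 stands for entries of exactly 1 in the deposited file, which lie outside its TPM total and were read as 0. *Gimap4* read 3.60 and 2.83 TPM, 4.63, 3.40 and 4.25 TPM and 0.0700, 0.253 and 0.0775 TPM in the same stages. Both fell between DN1 and DN2a, *Gimap3* by 4.16 and *Gimap4* by 4.24 on the log2 scale (limma adjusted p = 0.000239 and 7.05e-06). At such low values the size depends on the pseudocount, with changes of -2.14 and -2.16 at a pseudocount of 1, and for *Gimap3* it was -4.90 without DN2a replicate 2 and -3.51 without the DN2a sample at 0. In the same step *Gimap1*, *Gimap6* and *Gimap8* fell and *Gimap9* rose, so that 6 members changed (33.7% of all genes in either direction). Granulocyte and macrophage markers summed to 1761 to 2006 TPM in DN1 and to 495 to 516 TPM in DN2a, and their part in it was not tested.

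Between LMPP and DN1, 4 members changed (18.6% of all genes in either direction). *Gimap7* fell from 46.9 and 34.8 to 19.5, 18.4 and 17.4 TPM (-1.13 ± 0.22, limma adjusted p = 0.00229; 0.0544 without LMPP replicate 1) and *Gimap8* from 23.9 and 19.9 to 7.98, 8.60 and 7.57 TPM (-1.43 ± 0.19, limma adjusted p = 8.53e-05). *Gimap6* fell as well (-0.77) and *Gimap9* rose (0.66). Between DN2a and DN2b 2 members passed (18.2%), *Gimap4* upwards at under 1 TPM and *Gimap9* downwards (-0.44), and both calls were lost when the values were rescaled by median ratios. Between DN2b and DN3a 3 members changed (45.8%). *Gimap7* fell from 15.9, 17.2 and 20.1 to 8.98 and 5.34 TPM (-1.33 ± 0.22, limma adjusted p = 0.000338), and *Gimap6* and *Gimap9* rose by 0.55 and 0.54, which was lost under median ratio scaling.

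*Gimap5* was not called in any step up to DN3a. It read 34.7 and 31.4 TPM in LMPP, 30.3, 23.1 and 27 TPM in DN1, 21.8, 28.5 and 23.3 TPM in DN2a and 24.2, 20.7 and 27.1 TPM in DN2b (limma adjusted p = 0.296, 0.57, 0.936 and 0.0655 for the successive steps). *Gimap1* read 250.3, 227 and 228 TPM in DN1 and 171, 146 and 202 TPM in DN2a, a fall of 0.45 on the log2 scale that passed (limma adjusted p = 0.0227) and was lost under median ratio scaling. *Gimap9* was the member that rose in both of the first steps, from LMPP to DN1 and on to DN2a. It read 41.3 and 31.8 TPM in LMPP, 53.5, 54.5 and 65.2 TPM in DN1 and 88.01, 107 and 76.7 TPM in DN2a (0.66 ± 0.16 and 0.64 ± 0.14, limma adjusted p = 0.00822 and 0.00369). The first of these calls was lost without LMPP replicate 2 (0.48, limma adjusted p = 0.118).

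The members' median shifted most at β-selection, the checkpoint between DN3a and DN3b at which thymocytes with a rearranged receptor chain start to divide. There 6 members fell (39.2% of all genes tested were lower), with a median of -1.53 over the members and -0.41 over all genes. *Gimap8* fell from 5.62 and 4.60 to 0.965 and 0.990 TPM (-2.27 ± 0.21, limma adjusted p = 1.01e-06) and *Gimap5* from 36.4 and 28.7 to 10.01 and 7.31 TPM (-1.91 ± 0.20, limma adjusted p = 3.61e-06). *Gimap6* fell from 154 and 129.7 to 49.1 and 38.03 TPM (-1.71 ± 0.15, limma adjusted p = 8.42e-07). *Gimap1*, which passed in no comparison between Pax5 genotypes, fell here from 272 and 240.1 to 114 and 87.98 TPM (-1.35 ± 0.17, limma adjusted p = 1.69e-05). *Gimap7* and *Gimap9* fell by 0.73 and 0.80 and did not pass under median ratio scaling, and the call of *Gimap7* was lost also without DN3a replicate 1 or either DN3b sample (limma adjusted p = 0.0699 to 0.272). Of the 12 other immune GTPases tested, 12 fell over the same step (median -3.10).

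Rag2-/- DN3a cells, which cannot pass β-selection, were lower than wild-type DN3a cells in 4 members (19.5% of all genes tested were lower), with a median of -0.55 over the members and -0.18 over all genes. *Gimap4* read 0.155 and 0 TPM, the 0 again standing for entries of exactly 1, against 1.08 and 0.621 TPM (-2.53 ± 0.52, limma adjusted p = 0.00338), a change of -0.77 at a pseudocount of 1, of -3.21 without Rag2-/- replicate 1 and of -1.86 without replicate 2. *Gimap9* (-0.56 ± 0.17), *Gimap6* (-0.55 ± 0.15) and *Gimap7* (-0.82 ± 0.24) were lower by less, and these 3 calls were lost under median ratio scaling and without DN3a replicate 1 (limma adjusted p = 0.0603 to 0.26). *Gimap1* went the other way, with 308 and 301 TPM above 272 and 240.1 TPM (0.25 ± 0.17, limma adjusted p = 0.294), and passed under that scaling (0.44).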

How the data were processed

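RNA of sorted cells was sequenced after poly(A) selection with a kit that does not mark strand. For the 31 samples of the Pax5 mutants the deposited files give TPM per gene. These were made by the authors with STAR on GRCm38/mm10 and Rsubread after trimming of reads to a common length. Raw counts are held by 8 files as well. Those in the ∆CRD2/∆CRD2 files are of Pax5 +/+ replicate 3, and those in the Prd experiment files of Vav-Cre Pax5 fl/+ replicate 1. For the 17 lymphoid samples the deposited files, made with TopHat on mm9, hold 2 TPM values per gene, of which the mean was used. Entries of exactly 1 (17643 to 21121 per file) lie outside the file's TPM total, since the other entries sum to 2000000 without them (1999999 in 1 file), and were read as 0. The submitters' processing notes name STAR 2.4.2a, TopHat 1.4.1, Bowtie 1.0.0 and SAMtools 1.9. The 8 files with counts carry no gene names. Their rows were matched by order to the named files. For the ∆CRD2/∆CRD2 files, counts and named TPM of Pax5 +/+ replicate 3 were both 0 or both above 0 in all 25579 rows. For the files of the Prd experiment, a check was possible in 14405 rows. There the gene lengths implied by counts and TPM kept a constant ratio to those from the named file in 100% of rows. Whole reads were recovered from the deposited TPM with gene lengths implied by those counts, and 100% of values came out whole within 0.01. No per-sample column was left unused (0).

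Values were tested as log2(TPM + 0.1) in limma 3.58.1 (R 4.3.3; lmFit, eBayes with trend, two-sided) for genes that exceeded 1 TPM in any fitted sample, with Benjamini-Hochberg adjustment over these and a threshold of 0.05. The ∆OP, ∆HD and ∆OP,HD samples were fitted with the 2 Pax5 +/+ samples of 100 nt reads, the C-terminal mutants with all 5 and a read length term (hemizygous alone, and with the homozygous samples), and the Prd and lymphoid sets by themselves. The scripts were tested on simulated data with 200 changed genes. Alternatives were pseudocounts of 1 and 0.01, no filter, no trend, median ratio scaling, no read length term, a replicate block, leaving out each sample and edgeR 4.0.16 (quasi-likelihood) on the recovered reads of the Pax5 mutants.

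The text names all members, the 5 nearest protein-coding genes with a row on each side, the 10 genes with the highest Pearson's r with the member mean over 11 genotypes, and called genes of the lists; a few genes that this rule takes in are not reported here. The members and lists were chosen with earlier results of these data known. Samples of chromatin assays were not analysed here.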

Additional observations from a re-analysis of the deposited data

Results flagged for a closer look

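Effects of different *Pax5* alleles on the same gene differed for *Gimap3* and *Gimap7*, by a test of the difference itself (limma). *Gimap7* was higher by 0.65 on the log2 scale in ∆CRD1,2/- than in ∆CRD1/- cells, by 1.58 in Vav-Cre *Pax5* fl/fl progenitors than in ∆CRD1,2/- cells and by 0.73 in ∆CRD1,2/- than in ∆CRD1,2/∆CRD1,2 cells. The calls at 0.65 and 0.73 were weak, lost in 9 of 13 and 7 of 13 alternatives. In ∆CRD1/- cells against the progenitors, a comparison added after the values were seen, *Gimap7* changed by -2.24 and *Gimap3* by 2.05. These members of the same cluster thus ordered these 2 groups in opposite ways, while their r over the 11 genotype means was 0.66. *Gimap3* was also higher by 1.53 in *Pax5* Prd/fl than in *Pax5* fl/fl progenitors.

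*Gimap6* and *Gimap7* lay on opposite sides of the 2 *Pax5* +/+ samples with 100 nt reads in ∆OP and ∆HD cells. Both ∆OP samples were below and both ∆HD samples above these, with changes of -0.27 and 0.44 for *Gimap6* and of -0.78 and 0.22 for *Gimap7*. Of all genes tested, 22.9% lay below these wild-type samples in ∆OP. The shares for ∆HD and for both together were not counted. Both contrasts share these 2 wild-type samples. Over all 5 wild-type samples the ∆OP values of *Gimap6* and 1 of those of *Gimap7* lay within the range. This difference was not tested. In the 8 groups of 4 to 10 samples looked at (each member in *Pax5* +/+), 0 samples stood apart from the rest.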

How the results depend on the processing

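Of 83 calls of a member, tried under 1168 alternatives in all, 1063 were still made, 105 were not and 0 reversed. Signs changed in 51 of 2776 values, none of them called in either fit. Of 347 alternative counts of called members, 284 were within 1.5 times the count given and 63 were not. Without the trend the count became 1 in ∆OP,HD and 0 in ∆CRD2/-, in ∆CRD1,2/- against ∆CRD1/-, between the ∆CRD1,2 doses and in Prd/fl against fl/fl, and it became 1 in DN2b against DN2a. Without the filter it became 1 in ∆OP,HD and 0 in ∆CRD1,2/- against ∆CRD1/- and in DN2b against DN2a. By edgeR it became 2 in ∆CRD2/- and 3 in Prd/fl against fl/fl. Without the read length term it became 0 in ∆CRD1,2/- against ∆CRD1/- and between the ∆CRD1,2 doses, and 2 in the progenitors against ∆CRD1,2/-. With the wild-type samples of the same read length alone, an alternative chosen after the data were seen, it became 2 in ∆CRD2/- and 1 in ∆CRD2/∆CRD2. With a pseudocount of 1 or 0.01 it became 1 in DN2b against DN2a. Under median ratio scaling it became 0 there, 1 in DN3a against DN2b and 2 in Rag2-/- DN3a. The cause of these changes was not tested. The recovered reads needed by edgeR were not obtained for the lymphoid samples, where it was not run.

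Same-numbered samples mostly did not deviate together. Correlations above 0.1 were found for 0 of 10 pairs of groups in the hemizygous model and 2 of 21 with the homozygous samples. They were found for 0 of 3 pairs in the Prd experiment and 1 of 21 lymphoid pairs, and the highest was 0.156. The numbers were therefore not used as a pairing in the main fits. With 2 samples in most groups, this check cannot exclude that same-numbered samples share an origin. With the replicate block the count became 0 in ∆CRD1,2/- against ∆CRD1/-, between the ∆CRD1,2 doses and in DN2b against DN2a. Most contrasts of the C-terminal models could not be fitted with the block and the read length term together. With the replicate block and no read length term, chosen after the data were seen, it became 0 in ∆CRD1,2/- against ∆CRD1/- and between the ∆CRD1,2 doses, 2 in ∆CRD2/-, 3 in the progenitors against ∆CRD1,2/-, 3 in ∆CRD2/∆CRD2 and 3 between the ∆CRD1 doses. With the pairing crossed in the Prd experiment, 7, 1 and 7 members were called. No paired analysis was possible for ∆OP, ∆HD and ∆OP,HD because they share no replicate number with the wild-type samples used.

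Leaving out 1 sample at a time, the count against *Pax5* +/+ ranged from 0 to 0 in ∆OP, 0 to 1 in ∆HD, 0 to 1 in ∆OP,HD, 0 to 3 in ∆CRD2/- (2 without *Pax5* +/+ replicate 2, 3 without replicate 5), 5 to 7 in ∆CRD1/- and in ∆CRD1,2/-, 7 to 8 in the progenitors, 0 to 0 in ∆CRD2/∆CRD2, 3 to 6 in ∆CRD1/∆CRD1 (3 without its replicate 1) and 5 to 7 in ∆CRD1,2/∆CRD1,2. In ∆OP,HD it was 1 without either wild-type sample or its replicate 2. It was 0 in ∆CRD1,2/- against ∆CRD1/- without any of the 4 samples, and 0 to 1 between the ∆CRD1,2 doses (0 without either homozygous sample or ∆CRD1,2/- replicate 2). In the Prd experiment it ranged from 4 to 6 for fl/fl against fl/+ (4 without fl/+ replicate 2), 0 to 7 for Prd/fl against fl/fl and 7 to 8 for Prd/fl against fl/+. In the lymphoid series it was 3 to 4 for DN1, 5 to 6 for DN2a, 0 to 2 for DN2b (0 without a DN2a sample or either of 2 DN2b samples), 2 to 4 for DN3a, 5 to 7 for DN3b and 1 to 3 for Rag2-/- DN3a (1 without DN3a replicate 1 or Rag2-/- replicate 2, 2 without Rag2-/- replicate 1). A lone remaining sample was assumed to vary like the other groups. With 2 samples in most groups, small changes were not detectable.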
